A study of Mus musculus with 2 samples.

Results

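The 54 genes described here encode the machinery that releases synaptic vesicles and takes their membrane back. They were taken by symbol from a list, and all 54 were found among the 43346 genes of the expression tables. RNA was measured in 1 group, the central nervous system of embryonic day 14 mice (strain C57BL/6J), with 2 biological replicates and no treatment or mutant. Each replicate pooled male and female littermates, and the labels give both a shared donor identifier and name no part of the brain or spinal cord. The stranded paired-end libraries came from poly(A)+ RNA of more than 200 nucleotides and held ERCC spike-in RNAs. They gave 99528934 expected counts over genes in replicate 1 and 134760822 in replicate 2. With 1 group there is no contrast of conditions and no test, so values are given for replicate 1 and then replicate 2, or as a mean ± SD (n = 2).

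A synaptic vesicle is docked and primed at the active zone, fuses when calcium enters the terminal, and is rebuilt from the plasma membrane. Fusion is driven by SNARE proteins on the vesicle and the plasma membrane, synaptotagmins sense calcium, and complexins hold and trigger the assembled SNAREs. Clathrin, amphiphysins and dynamin then retrieve the membrane, and synaptojanin helps to strip the coat. In the embryonic nervous system most neurons are still extending axons and have few mature synapses, and several of these proteins also serve membrane traffic in growth cones and in cells that are not neurons.

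All 54 genes reached 1 TPM (transcripts per 1000000 transcripts, a level that is scaled for length) in both replicates, against 34.6% of all genes and 63.4% of protein-coding genes. All 54 are annotated as protein coding. Their median level was 37.9 and 39.1 TPM (38.5 ± 0.817), whereas protein-coding genes at 1 TPM or more in both replicates had medians of 21.3 and 21.2 TPM. In each replicate 39 of the 54 lay above that median. The list was chosen with earlier results of these data known, so these contrasts only describe it and test nothing. The levels covered a wide span, with 12 genes at a mean of 100 TPM or more, 36 between 10 and 100 TPM and 6 between 1 and 10 TPM. Clta, the clathrin light chain gene a, was at the top with 394 and 429 TPM. Unc13c, a priming factor best known from the cerebellum, was at the bottom with 1.52 and 1.08 TPM, and the expected counts of the members ran from 782 to 48514. Of the 53 pairs of neighbours in the order by mean level, 34 had replicate values that overlapped, so that order is coarse. The members lay on 20 chromosomes, with at most 5 on any of them. In the mm9 gene table their levels, as RPKM averaged over both fields, had a Spearman rho of 0.984 and a Pearson r of 0.979 on log2(value + 1) with mean TPM, across these 54 genes, which are not independent replicates. The order at the top differed there, with Snap47 first at 41.9 RPKM, then Clta at 31.1 and Rab3a at 29.0 RPKM.

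**Figure D1:**
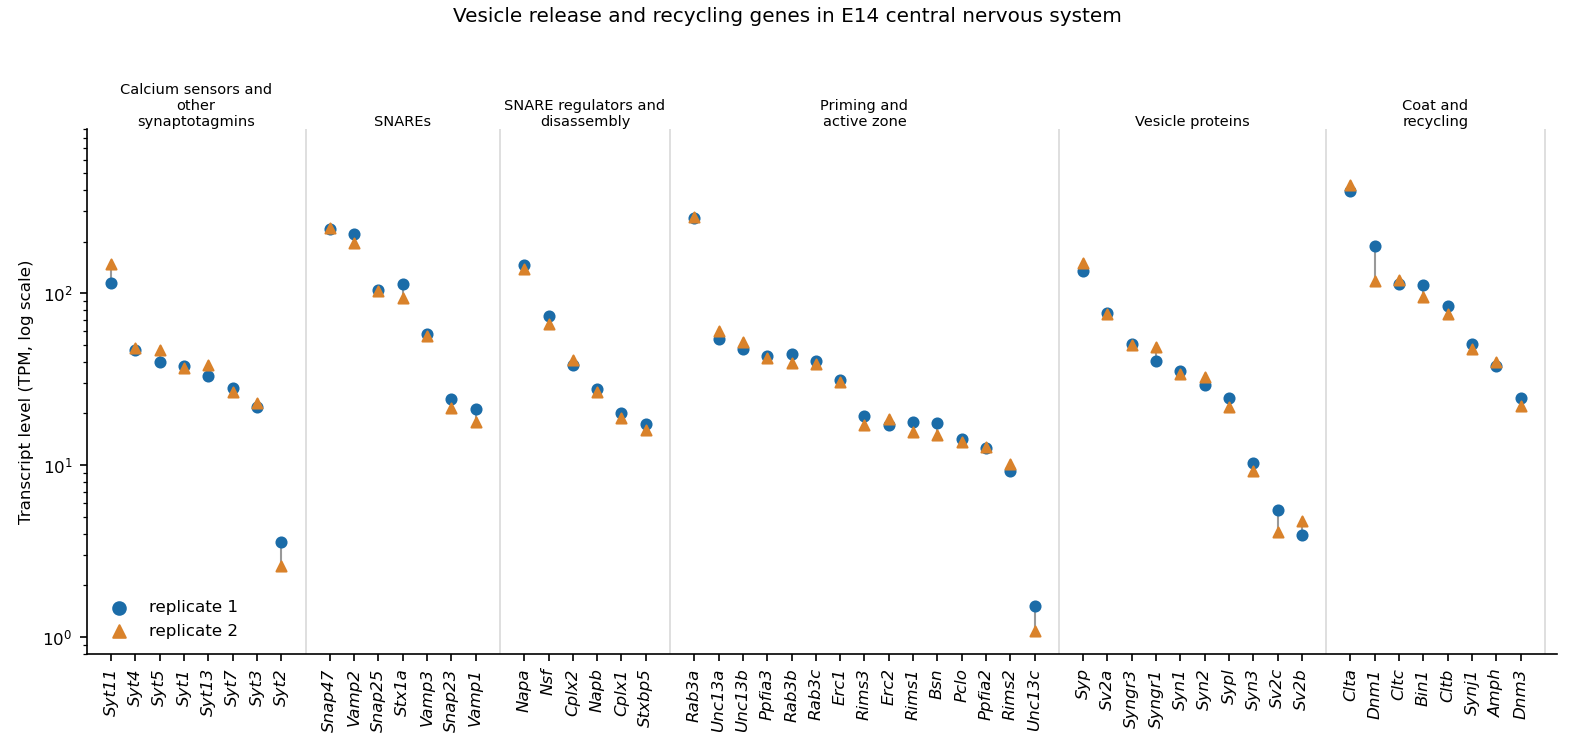
Level of each of the 54 genes in TPM (log axis), grouped by role and ordered by mean level within a role, with a circle for replicate 1 and a triangle for replicate 2. Most pairs of symbols lie close together, and Dnm1 (188 and 118 TPM) shows the widest gap among the abundant genes.

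The tissue label was compared with lists of marker genes. All 8 genes listed for postmitotic neurons and all 7 for radial glia reached 1 TPM in both replicates, with summed levels of 3868 and 4208 TPM and of 2015 and 2293 TPM. The replicates differed in other tissues. The 12 skeletal muscle genes summed to 630 TPM in replicate 1 and 16.4 TPM in replicate 2, the 9 genes of peripheral neurons and Schwann cells to 215 and 116 TPM, and the 4 fibroblast genes to 876 and 363 TPM. The 4 genes of red blood cells summed to 8357 and 4065 TPM. Of 7 neuroendocrine genes, 3 reached 1 TPM in both replicates and Ins1 was listed at 0 in both. In bulk tissue, fewer cells of a type and less RNA per cell cannot be told apart.

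Synaptotagmins are vesicle proteins, of which some bind calcium and start fusion and others do not bind it. The 8 members had a median of 35.2 and 37.6 TPM, and they spanned 3.09 to 131 TPM on average. The highest was Syt11, which does not sense calcium, with 115 and 148 TPM. Syt4, a form of neuropeptide-containing vesicles with weak calcium binding, had 46.9 and 47.8 TPM. Syt5 had 40.0 and 46.7 TPM and Syt1 (chr10:108497650-109010982), the fast calcium sensor of forebrain synapses, had 37.5 and 37.0 TPM. The levels of Syt5 in both replicates lay above those of Syt1. Syt13, another form without calcium binding, had 32.9 and 38.2 TPM, so that its replicate values enclosed those of Syt1. Syt7, a sensor of slower release, and Syt3 had 27.4 ± 1.05 and 22.4 ± 0.771 TPM. Syt2, the fast sensor of hindbrain, cord and neuromuscular synapses, was the lowest of the group at 3.59 and 2.58 TPM, below every value of the other 7.

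The 7 SNARE genes were among the more abundant, with a median of 104 and 94.0 TPM. Snap47, a broadly expressed relative of Snap25, led them with 238 and 240.5 TPM, and Vamp2, the main vesicle SNARE, followed with 219.9 and 196 TPM. The levels of Snap47 were higher than those of Vamp2 in both replicates. Snap25, which lines the plasma membrane of the terminal, had 104 and 104 TPM. Stx1a, its syntaxin partner, had 113 and 94.0 TPM, which enclosed both values of Snap25. Vamp3, a broadly expressed vesicle SNARE, had 57.9 and 56.6 TPM. Snap23, the form that most cells outside the nervous system use, had 24.2 and 21.5 TPM, and Vamp1, which predominates in cord and brainstem of the adult, was the lowest at 21.1 and 17.8 TPM.

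Snap25 (chr2:136713453-136782428, + strand, mm10) is spliced with 1 of 2 exons of 118 nucleotides, 5a or 5b, that encode the stretch around the cysteines by which the protein is anchored in the membrane. In mouse brain 5a is known as the earlier form and 5b as the form of the adult. Both exons are coding and differ at 31 of 118 bases, of which 23 are at the third position of a codon. They are printed 5′ to 3′ with the differing bases in capitals, exon 5a from chr2:136769743-136769860 and exon 5b from chr2:136770057-136770174, both on the + strand of mm10 and read from GENCODE transcripts.
Snap25 exon 5a: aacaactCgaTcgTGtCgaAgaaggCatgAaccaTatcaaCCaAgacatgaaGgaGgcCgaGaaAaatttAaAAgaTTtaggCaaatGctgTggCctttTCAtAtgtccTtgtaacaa
Snap25 exon 5b: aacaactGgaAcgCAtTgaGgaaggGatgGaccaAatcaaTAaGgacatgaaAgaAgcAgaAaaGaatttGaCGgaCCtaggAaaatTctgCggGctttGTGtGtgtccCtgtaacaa

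The 5b form predominated in every readout of Snap25, by different amounts. The transcript with exon 5b had 89.2 and 88.4 TPM and that with exon 5a had 14.8 and 14.9 TPM, so 5b took 85.5 ± 0.142% (SD, n = 2) of the gene's transcript TPM. These transcripts also differ outside the exon, since the annotated last exon holds 1354 nucleotides in the 5b transcript and 277 in the 5a transcript, and the part of that difference in the shares was not tested. The mm9 junction table lists reads in 2 fields that no label ties to the numbered replicates, and they are called field 1 and field 2. Reads from the upstream exon went to 5b in 823 of 1033 cases in field 1 (79.7%, exact 95% interval 77.1 to 82.1%) and 982 of 1279 in field 2 (76.8%, 74.4 to 79.1%). Reads into the downstream exon came from 5b in 254 of 388 cases in field 1 (65.5%, exact interval 60.5 to 70.2%) and 276 of 437 in field 2 (63.2%, 58.4 to 67.7%). The fields overlapped within each side of the exon, whereas the upstream and downstream sides did not. All such intervals cover counting error only and take each read as a separate molecule. PCR copies of 1 molecule cannot be told from separate molecules here, so the intervals may be too narrow.

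Genes that guide or undo SNARE pairing had a lower median, 33.0 and 33.8 TPM over 6 genes. Napb, the brain form of the adaptor that brings an ATPase to used SNARE complexes, had 27.6 and 26.6 TPM, against 147 and 139 TPM for Napa, the form of all cells and the highest of the group. Nsf, that ATPase, had 73.4 and 65.9 TPM. Cplx1 had 20.1 and 18.7 TPM against 38.3 and 41.0 TPM for Cplx2, both complexins that clamp and trigger fusion. Stxbp5 (tomosyn), which competes with vesicle SNAREs and so restrains fusion, was the lowest at 17.4 and 15.9 TPM.

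The 15 genes of priming and the active zone had the lowest median of the 6 role groups, at 19.3 and 18.6 TPM, with a single gene far above it. Rab3a (chr8:70754679-70758677), the GTPase that brings vesicles to the active zone, had 274 and 277 TPM, the second highest mean TPM of all 54. The priming factors Unc13a and Unc13b had 54.4 and 60.0 TPM, and 47.6 and 52.0 TPM. Ppfia3, a liprin that scaffolds the active zone, had 43.2 and 41.9 TPM. The other Rab3 forms, Rab3b and Rab3c, had 41.6 ± 3.46 and 39.8 ± 1.07 TPM, far below Rab3a.

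The large scaffolds were low. Bsn (bassoon) had 16.3 ± 1.77 TPM and Pclo (piccolo) had 13.9 ± 0.389 TPM. Erc2, the brain form of the ELKS scaffold, had 17.2 and 18.6 TPM, against 31.3 and 30.6 TPM for Erc1, which is found in many tissues. The RIM genes, whose proteins tether calcium channels and vesicles, had 17.8 and 15.5 TPM for Rims1, 9.30 and 10.2 TPM for Rims2 and 18.2 ± 1.62 TPM for Rims3, a short form. Ppfia2 had 12.6 ± 0.177 TPM. Unc13c was the lowest, at 1.52 and 1.08 TPM and 826 and 782 expected counts.

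Among the 10 vesicle membrane and coat proteins the median was 32.2 and 33.1 TPM. Syp (synaptophysin, chrX:7638471-7653256), an abundant membrane protein of the vesicle, led with 134 and 149.8 TPM. Sv2a, a vesicle glycoprotein found at nearly all synapses, had 76.6 and 76.1 TPM, whereas its relatives Sv2b and Sv2c had 3.91 and 4.73 TPM, and 5.50 and 4.08 TPM. The values of Sv2b and Sv2c overlapped, and every value of Sv2a was far above them. The synaptogyrins, vesicle proteins related to synaptophysin, had 50.6 and 49.8 TPM for Syngr3 and 40.5 and 48.4 TPM for Syngr1. The synapsins tie vesicles into a reserve pool. Syn1 had 35.1 and 33.8 TPM, Syn2 29.2 and 32.5 TPM, and Syn3 9.78 ± 0.827 TPM. Sypl, the synaptophysin relative of other tissues, had 24.7 and 21.8 TPM.

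Coat and recycling genes had the second highest median of the 6 role groups, after the SNAREs, with 97.7 and 85.4 TPM over 8 genes. Clta had 394 and 429 TPM and Dnm1, the neuronal dynamin that cuts the neck of the endocytic pit, had 188 and 118 TPM. Cltc, the clathrin heavy chain, had 114 and 119 TPM. Bin1 (amphiphysin-like, with a membrane-bending domain) had 111 and 94.8 TPM, which lay below Cltc in both replicates. Cltb, the other light chain, had 84.4 and 75.9 TPM. Synj1, the phosphatase that helps uncoating, had 48.8 ± 2.38 TPM and Amph, its amphiphysin partner, 38.7 ± 1.63 TPM. Dnm3 was the lowest of the group at 24.7 and 22.0 TPM.

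Both clathrin light chain genes hold a 54-nucleotide coding exon that neurons are known to include, and Clta holds a second, of 36 nucleotides. The 54-nucleotide exons of Clta (chr4:44030215-44030268, + strand) and Cltb (chr13:54597026-54597079, − strand) shared 37 of 54 bases (68.5%), which are in capitals, and the 36-nucleotide exon of Clta (chr4:44031400-44031435, + strand) is shown in lower case. All are on mm10, are printed 5′ to 3′ in the sense of the gene, and have lengths that are multiples of 3.
Clta 54-nt exon: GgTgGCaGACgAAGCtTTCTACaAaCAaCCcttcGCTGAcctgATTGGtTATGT
Cltb 54-nt exon: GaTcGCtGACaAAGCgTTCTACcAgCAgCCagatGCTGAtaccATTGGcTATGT
Clta 36-nt exon: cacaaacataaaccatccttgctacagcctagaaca

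The 54-nucleotide exon was in the larger part of Clta transcripts, and the exon of 36 nucleotides in few. Transcripts with the longer exon had 216 and 252 TPM of 394 and 429 TPM for Clta, or 56.8 ± 2.67%. The transcript with the 54-nucleotide exon alone held most of that, at 209 and 242 TPM, and the highest of the 3 transcripts that lack both exons had 153 and 148 TPM. The transcript with both had 7.50 and 10.3 TPM. In the junction table, reads from the preceding exon entered the 54-nucleotide exon in 53.0% of 8403 cases over both fields (exact interval 52.0 to 54.1%). On the downstream side it was 64.8% of 11214 reads (63.9 to 65.7%), with 60.0% in field 1 and 68.1% in field 2, whose intervals did not overlap. From the 54-nucleotide exon, reads went on to the 36-nucleotide exon in 91 of 2829 cases in field 1 and 170 of 4700 in field 2 (3.47% over both, exact interval 3.06 to 3.90%).

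For Cltb the readouts differed more than their errors. The transcript with the 54-nucleotide exon had 56.1 and 50.8 TPM, the transcript without it 21.2 and 18.7 TPM, and a retained-intron transcript 7.12 and 6.48 TPM, so inclusion was 66.7 ± 0.318% of the gene's TPM. Among junction reads the exon was included in 282 of 681 and 286 of 714 reads on its upstream side, in fields 1 and 2 (40.7% over both, exact interval 38.1 to 43.3%). On its downstream side it was included in 541 of 940 and 547 of 975 reads (56.8%, 54.6 to 59.0%). The 2 fields overlapped on each side. The last exon is annotated with 458 nucleotides in the transcript with the alternative exon and 1642 in that without it, and the part of that length in the transcript shares was not tested.

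**Figure D2:**
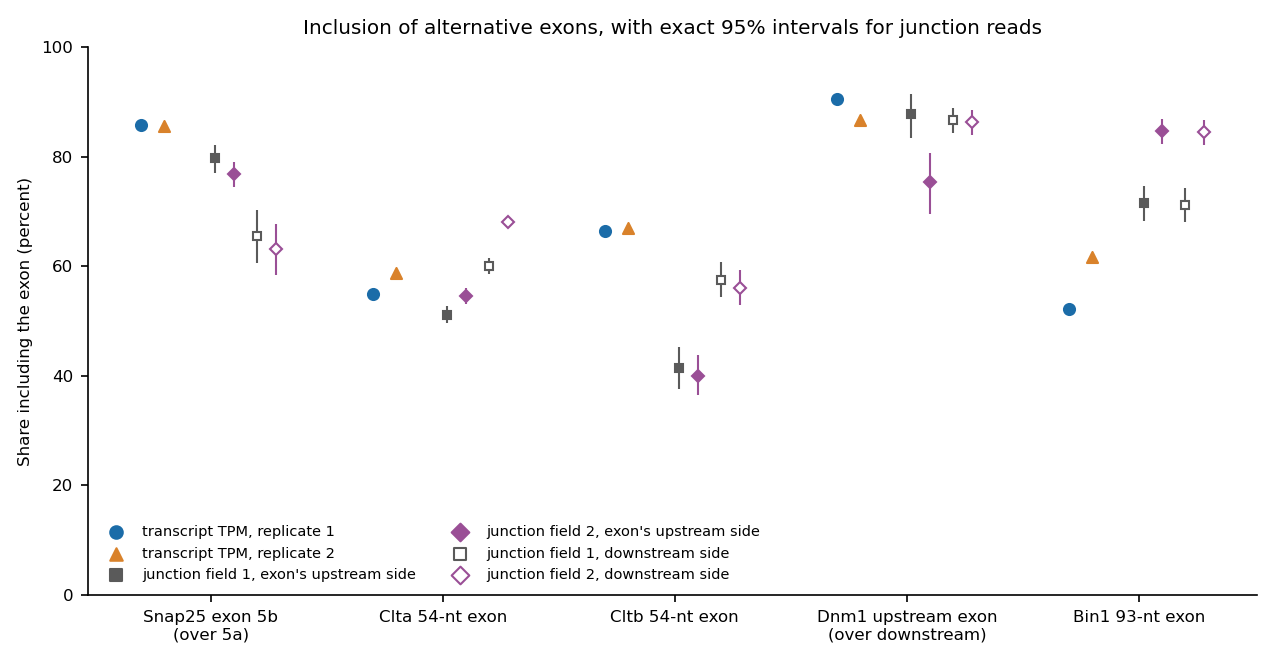
Share that includes an alternative exon, in percent, from transcript TPM (circle, replicate 1; triangle, replicate 2) and from junction reads in field 1 (squares) and field 2 (diamonds), filled for the exon's upstream side and open for its downstream side, with exact 95% intervals. Snap25 and Dnm1 shares are those of the named exon among both exclusive exons; the fields lie apart for Bin1, near 71% and 85%.

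Dnm1 (chr2:32308471-32353338, − strand) is spliced with 1 of 2 exons of 139 nucleotides, which differ at 39 of 139 bases and are both coding. The upstream exon is at chr2:32334682-32334820 and the downstream exon at chr2:32333066-32333204, on the − strand of mm10. They are shown because the results below turn on their choice, 5′ to 3′ with the differing bases in capitals.
Dnm1 upstream exon: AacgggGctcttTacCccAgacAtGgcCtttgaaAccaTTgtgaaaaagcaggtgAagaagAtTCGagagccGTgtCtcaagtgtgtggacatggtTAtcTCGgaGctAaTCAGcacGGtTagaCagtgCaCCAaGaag
Dnm1 downstream exon: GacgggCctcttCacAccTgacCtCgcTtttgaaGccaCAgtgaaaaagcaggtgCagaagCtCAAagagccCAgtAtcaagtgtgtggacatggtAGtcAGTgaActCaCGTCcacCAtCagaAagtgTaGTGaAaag

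The upstream exon was in most Dnm1 RNA that held either exon of the pair. Transcripts with it had 71.4 and 50.9 TPM and the 1 deposited transcript with the downstream exon had 7.47 and 7.79 TPM, which gives 88.6 ± 2.68% for the upstream exon among both. As a share of all Dnm1 TPM the upstream exon held only 40.5 ± 3.57%, because 7 shorter transcripts hold neither exon. In the junction table, 736 of 849 reads in field 1 and 821 of 951 in field 2 joined the upstream exon to the exon that follows (86.5% over both, exact interval 84.8 to 88.0%). On the other side it was 252 of 287 reads in field 1 (87.8%, 83.4 to 91.4%) and 181 of 240 in field 2 (75.4%, 69.5 to 80.7%), and these intervals did not overlap. The junction of the downstream exon on that side was listed 1 base off the annotated ends.

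Much of the TPM of Dnm1, and most of its TPM difference between replicates, lay in short transcripts. The 7 transcripts of 329 to 1520 nucleotides that hold neither exon of the pair summed to 109 and 59.6 TPM, while the 6 of 3189 to 4605 nucleotides summed to 78.9 and 58.7 TPM. In expected counts the order was the other way, with 4316 and 3205 for the short and 19059 and 18678 for the long transcripts. These counts are not scaled for depth, and replicate 2 had more expected counts over genes (134760822 against 99528934). Relative to that depth the long transcripts were lower in replicate 2 as well, and they held most of the gene's expected counts. A processed transcript of 810 nucleotides alone had 50.2 and 19.7 TPM. Of the long ones, the transcript of 3764 nucleotides had 27.5 and 11.4 TPM and that of 4605 nucleotides had 34.0 and 26.6 TPM. The long transcripts share most of their sequence, and the one of 3258 nucleotides was listed with 998 and 1583 expected counts and a posterior SD of 187 and 201.5. With 78.9 and 58.7 TPM the long Dnm1 transcripts alone were still above Dnm3, at 24.7 and 22.0 TPM.

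**Figure D3:**
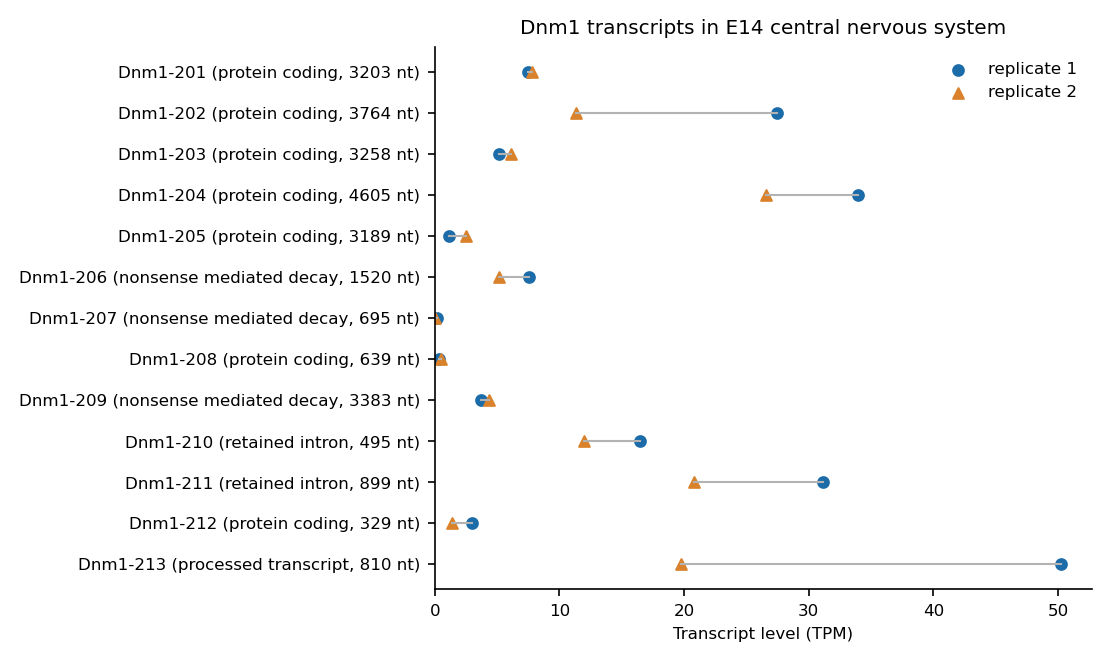
Level in TPM of each of the 13 Dnm1 transcripts, with a circle for replicate 1 and a triangle for replicate 2, and the annotated type and length of each transcript. The processed transcript of 810 nucleotides (50.2 and 19.7 TPM) and the coding transcript of 3764 nucleotides (27.5 and 11.4 TPM) show the widest gaps.

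Dnm1 also holds 2 coding microexons of 12 nucleotides, at chr2:32323179-32323190 and chr2:32315336-32315347 on the − strand. Both are printed in full in capitals, since the reads around them are discussed next.
Dnm1 first 12-nt exon: GATGAGATTCTG
Dnm1 second 12-nt exon: GACAAAGAGAAA

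For the first microexon the annotated junctions held few reads. It was joined to the preceding exon by 13 and 16 reads and to the next by 27 and 48 reads in fields 1 and 2, and 155 and 39 reads skipped it. A junction that is in no annotated transcript had far more, 472 and 565 reads, and its ends lay 7 and 5 nucleotides inside the flanking introns, which sum to the 12 nucleotides of the microexon. At the second microexon the annotated junctions held 0 and 1 reads on the upstream side and 14 and 9 on the downstream side. The unannotated junction there held 984 and 743 reads, with ends 8 and 4 nucleotides off, again 12 in sum. No share of inclusion is given for either microexon for that reason. How the reads over these exons were placed was not tested. Skipping of the first microexon was 2.94 reads per 1000000 in field 1 and 0.545 in field 2.

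Bin1 (chr18:32377230-32435737) was listed with 2 transcripts, whose exons are taken from a later annotation in which they are 45 and 27 nucleotides shorter than in the deposited tables. The longer, which holds a 93-nucleotide coding exon that brain forms are known to include, had 57.9 and 58.5 TPM, and the shorter, which lacks it, had 53.2 and 36.3 TPM. The level of the form with the exon was nearly equal in the replicates, and the whole difference of the gene lay in the form without it. Inclusion was thus 52.1 and 61.7% of the gene's TPM. Junction reads gave higher shares, 593 of 829 in field 1 (71.5%, exact interval 68.3 to 74.6%) and 834 of 985 in field 2 (84.7%, 82.3 to 86.9%) on the upstream side. On the downstream side they were 71.3% and 84.5%, and the intervals of the fields did not overlap on either side.

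Further along Bin1 the junction reads favoured exons that the 2 transcripts do not combine. Reads from an exon that both transcripts share continued into the next, of 108 nucleotides, in 471 of 537 cases in field 1 and 696 of 744 in field 2 (91.1% over both, exact interval 89.4 to 92.6%). From the short exon after that, 105 and 129 reads went to the exon after it, which the longer transcript holds, while 433 and 643 reads passed over it by an unannotated junction. Inclusion of this later exon was 17.9% over both fields (exact interval 15.8 to 20.0%). Neither transcript, as annotated later, holds the earlier without the later of these exons.

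A 45-nucleotide exon of Bin1, whose junctions are listed as unannotated, appeared in field 1 alone. Its junctions held 58 and 39 reads in field 1, beside 1267 reads that skipped it, and 0 and 0 reads in field 2, beside 1353. The 0 of 1353 reads allows a share of up to 0.222%, taken as 3 reads of that total, and the exact 95% interval reaches 0.272%. A muscle form of Bin1 with an extra exon for lipid binding is known, and the reads of the skeletal muscle markers moved with the same field: junctions within the 12 muscle genes held 923 reads per 1000000 in field 1 and 42.1 in field 2, those within the 9 peripheral neuron and Schwann cell genes 289.7 and 129.6, and those within the 8 neuronal genes 2386 and 2556. The part of other tissues in the differences of Bin1 and Dnm1 between fields was not tested.

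Related genes were set against each other within a replicate, where the scale of TPM is shared. In 15 fixed pairs of paralogs the first gene was the higher in both replicates in 11 and the second in 4, and no pair changed its order between replicates. The neuronal form was higher than its broadly expressed relative for Snap25 over Snap23 (log2 ratios of TPM of 2.11 and 2.27), Vamp2 over Vamp3 (1.93 and 1.79) and Syp over Sypl (2.44 and 2.78). The reverse held for Napb over Napa, at -2.41 and -2.39, and for Erc2 over Erc1, at -0.86 and -0.72. Unc13a stood close to Unc13b, with 0.19 and 0.21, and in the mm9 RPKM values (mean over fields) their order turned, with 4.67 for Unc13a and 6.44 for Unc13b.

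Among forms that share a role the gaps ran from none beyond the spread to over 10-fold. Sv2a over Sv2b had the largest log2 ratio, 4.29 and 4.01, or 17.8-fold on average, followed by Syt1 over Syt2 at 3.39 and 3.84 (12.2-fold) and Vamp2 over Vamp1 at 3.38 and 3.46 (10.7-fold). Rab3a over Rab3b had 2.64 and 2.82, and Dnm1 over Dnm3 had 2.93 and 2.43. The ratio for Dnm1 counts its short transcripts, which held 58.0 and 50.3% of its TPM, so it is smaller for the long transcripts alone. Cltb over Clta had -2.22 and -2.50, and Cplx1 over Cplx2 had -0.93 and -1.13. Rims1 over Rims2 had 0.93 and 0.60. Syn1 over Syn2 had 0.26 and 0.05 (0.16 ± 0.15, SD, n = 2), a difference about as large as its spread between replicates.

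**Figure D4:**
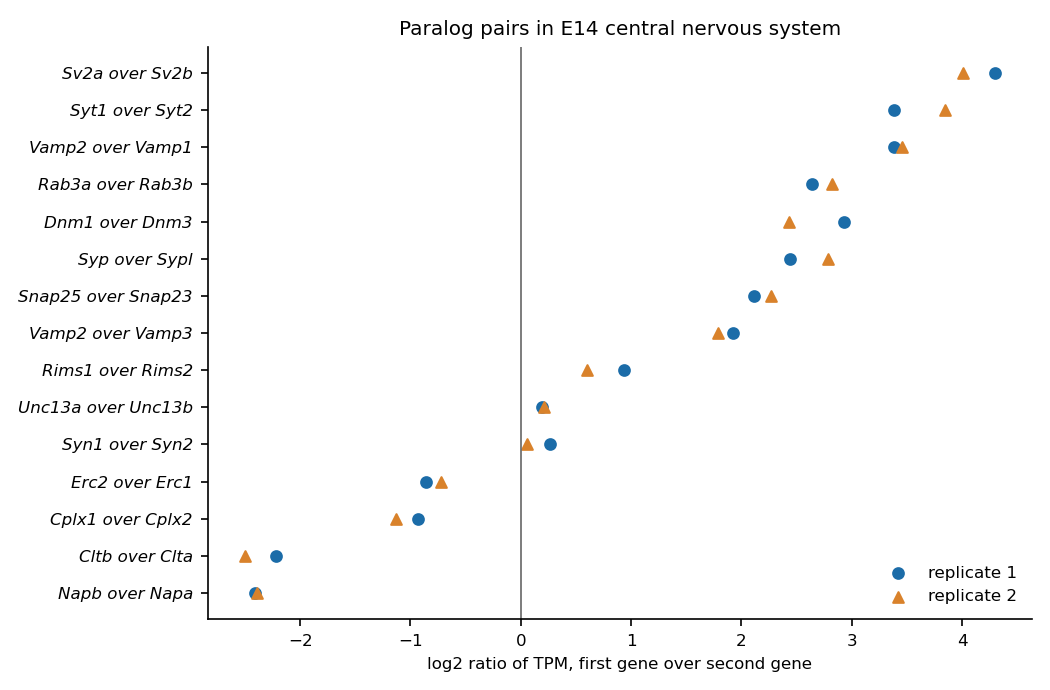
log2 ratio of TPM, first gene over second gene, in 15 pairs of paralogs, with a circle for replicate 1 and a triangle for replicate 2. Points right of 0 mean that the first gene was higher; Sv2a over Sv2b is at the top with 4.29 and 4.01 and Napb over Napa at the bottom with -2.41 and -2.39.

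The replicates were compared gene by gene. On expected counts scaled by TMM (trimmed mean of M values), 0 of the 54 were at least 2-fold apart, against 4.24% of the 14340 genes whose expected counts averaged 200 or more (0.286% higher and 3.95% lower in replicate 2). All 54 members passed that minimum. At 1.5-fold it was 0 of 54 as well, against 9.65%. The median log2 ratio of replicate 2 over replicate 1 was -0.05 for the members and 0.02 for all such genes, and the median absolute log2 ratio was 0.12 and 0.15. Of the members, 19 were above 0 and 35 below, whereas of all 14340 genes 7818 were above 0 and 6522 below. Scaled to the spike-ins instead, 26 were above 0 and 28 below, with a median of -0.01 for the members and 0.06 for all such genes. The member median minus that of all such genes was -0.07 in both scalings.

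The largest differences were those of Dnm1, with a log2 ratio of -0.51, Unc13c (-0.49), Sv2c (-0.48), Syt2 (-0.43) and Snap23 (-0.38), all lower in replicate 2. Unc13c, Syt2 and Sv2c are also among the 4 members with the lowest levels. The highest ratios were those of Syt11 (0.34), Sv2b (0.27), Syt5 (0.23), Syt13 (0.22) and Unc13b (0.16). In the same libraries 11 of the 11 skeletal muscle markers with enough counts and 6 of the 9 markers of peripheral neurons and Schwann cells were at least 2-fold lower in replicate 2, with median log2 ratios of -5.43 and -1.66. Neuronal markers had a median of 0.16 and radial glia markers of 0.24. The part of these tissues in the ratios of the members was not tested.

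**Figure D5:**
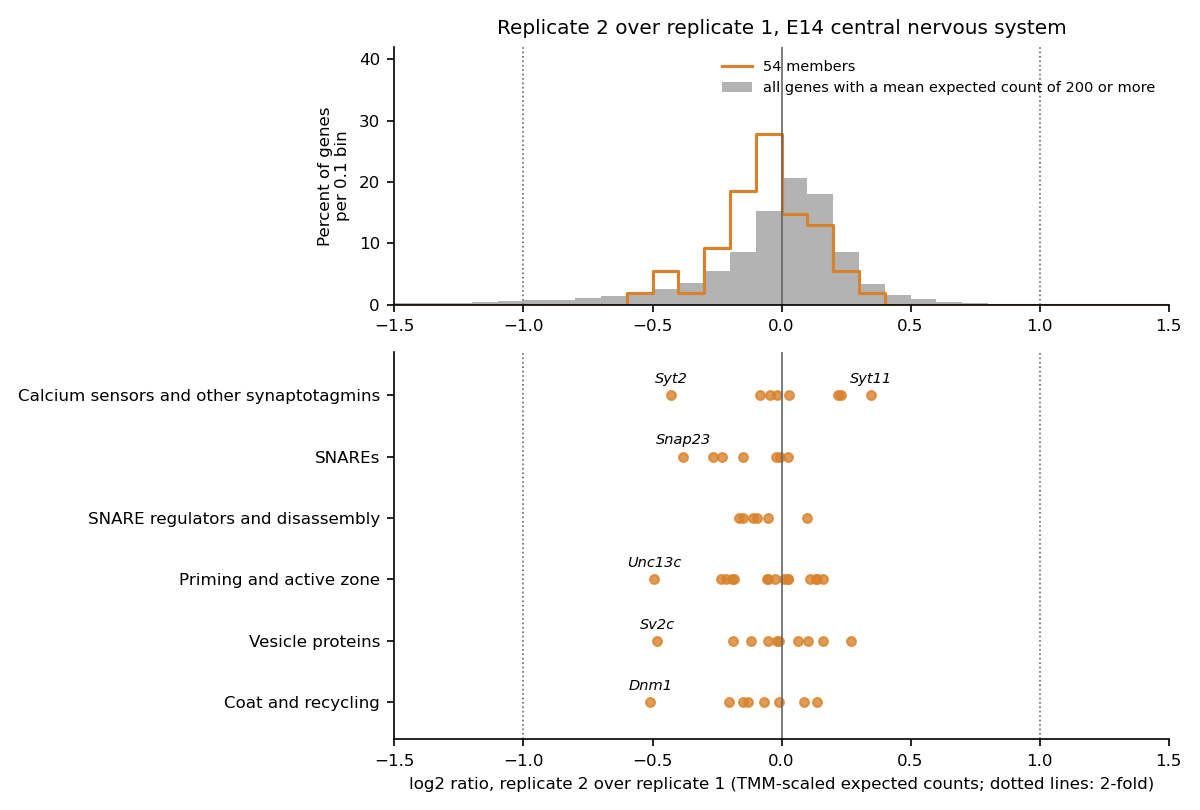
log2 ratio of replicate 2 over replicate 1 from TMM-scaled expected counts. Above, the percent of the 54 members (line) and of all genes that averaged 200 or more expected counts (bars) in bins of 0.1, with 1.94% of all genes outside the axis; below, each member by role, where none crosses the dotted 2-fold lines and Dnm1 (-0.51) and Syt11 (0.34) lie at the ends.

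Other genes of the same pathway, taken from a list of 80 of which 79 were matched, were mostly present too. Of these, 72 reached 1 TPM in both replicates, and their median was 29.4 and 29.7 TPM. The adaptor subunits that link clathrin to cargo, Ap2m1 and Ap2s1, were the highest at 652 and 651 TPM and at 329 and 331 TPM. The lowest were the complexins Cplx4 (0.01 and 0 TPM) and Cplx3 (0.14 and 0.16 TPM), which are known from the retina, and the synaptogyrin Syngr4 (0.12 and 0.51 TPM). Of the 73 with enough counts, 35 were above 0 in log2 ratio and 38 below, and 1 was at least 2-fold apart. It was Sncg, a synuclein of peripheral neurons, at 161 and 77.3 TPM (-1.04), which is named after its values were seen.

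Promoter sequence (RefSeq, GRCm38.p6, 250 bases before to 50 after the start) was matched for 43 of the 54 genes. The GC box GGGCGG, searched on both strands, was in a window of 34 of the 43 genes (79.1%), against 38.2% of 27025 genes. Those 27025 were not limited to detected or protein-coding genes, whereas all members are both. No matched set was compared, so whether the contrasts in this paragraph are particular to these genes was not tested. TATAAA was in 2, Rab3b and Sv2b (4.65%, against 15.7%), and the cyclic AMP element TGACGTCA in 3, Cltb, Napa and Syn1 (6.98%, against 2.03%). The observed over expected CpG ratio, taken as the highest over a gene's windows, had a median of 0.737 for the 43 and 0.415 for all. The full RE1 motif, at which a repressor of neuronal genes binds, matched a window of 0 of the 43 genes and of 4 of all. These letter matches describe the windows and show no binding.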

How the data were processed

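The tables of 2 biological replicates of 1 group were used as the authors deposited them. Per the text deposited with the files, the mm10 tables use GENCODE M4. They give expected counts (estimates that need not be whole), TPM (scaled over all features, spike-ins included) and FPKM per gene, as deposited. For transcripts they give expected counts, TPM, the percent of the gene's TPM and a score of uncertainty, the posterior SD of the count, per the file headers. On mm9 the deposited gene and exon tables give RPKM and the deposited junction table read counts, each in 2 fields that no label ties to the replicates. The fields of different tables were not matched to each other. The aligner and quantifier were not given in the sources used here.

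Symbols, positions and exons came from GENCODE M21 by identifier (42462 of 43346 genes matched). Printed transcript lengths are those of the deposited tables and exon contents those of M21; the lengths differed for 5 of 13 transcripts of Dnm1 and 2 of 2 of Bin1, and for none of the other 3 genes with isoforms. Spike-ins (2.45 and 2.35% of counts) and features named by number were left out of library sizes. Expected counts were rounded, scaled by TMM in edgeR 4.0.16 (R 4.3.3) with a prior count of 1, and compared above a mean of 200; the log2 ratio was tested on simulated data. Junction shares at a shared splice site have exact 95% binomial intervals. Other steps used Python 3.11.15, pandas 2.3.3, scipy 1.17.1 and matplotlib 3.10.9. DESeq2 1.42.0 gave alternative size factors for the rounded counts.

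The members, gene lists, pairs and alternatives were chosen with earlier results of these data known. Genes are named by rule: in each role the 4 highest and the lowest, the paired genes, the 5 genes with isoforms, the 5 highest and 5 lowest log2 ratios, and the 3 highest and 3 lowest of the pathway list; the remaining members are given as well. A gene that the rule names is not reported here. The marker lists of endothelium (4 of 4 genes at 1 TPM in both replicates), microglia (4 of 4), red blood cells (3 of 4), astrocytes (2 of 4), oligodendrocytes (3 of 6) and retina (2 of 6 matched) were checked too. No per-sample column was left unmapped.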

Additional observations from a re-analysis of the deposited data

How the results depend on the processing

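No paired analysis was possible because the labels give 1 group, so no groups share replicate numbers. The number of members detected (50 to 54 over all thresholds and units), the 0 members at least 2-fold apart, the median log2 ratio (-0.05 to -0.01) and the paralog order (10 to 11 of 15 pairs) stayed within their limits under all alternatives. At 5 TPM, Syt2, Unc13c, Sv2b and Sv2c were not counted, and in FPKM only Unc13c was lost. The median level of 38.5 TPM was 23.6 in FPKM, 4.62 in mm9 RPKM and 43.0 in TPM rescaled without mitochondrial genes and spike-ins, which are other scales by construction, and 37.9 to 39.1 TPM in single replicates.

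Inclusion shares moved with the readout and with the transcripts counted. For Dnm1 most of the move came from leaving out transcripts that hold neither exon of the pair; for the other genes the cause was not tested. Where shares of both sides of an exon are pooled, Snap25 exon 5b had 85.7% among protein-coding transcripts, 74.4% in junction reads, 74.4% with 1 read added to each count, and 75.8% and 73.3% in fields 1 and 2 alone. The Clta 54-nucleotide exon had 59.8%, 59.8% with 1 read added, and 62.5% in field 2. The Cltb exon had 72.8% among protein-coding transcripts, 50.03% in junction reads, 50.03% with 1 read added, and 50.8% and 49.3% in the fields. The Dnm1 upstream exon had 84.5% among protein-coding transcripts, 85.5% in junction reads, 85.4% with 1 read added, and 87.0% and 84.1% in the fields, beside 40.5% of all Dnm1 TPM. The Bin1 93-nucleotide exon had 78.6%, 78.5% with 1 read added, and 71.4% and 84.6% in the fields. Single replicates gave 85.4 to 85.6% for Snap25, 54.9 to 58.7% for Clta, 66.4 to 66.9% for Cltb, 38.0 to 43.1% for Dnm1 and 52.1 to 61.7% for Bin1. With 2 libraries, the SD of a value rests on a single difference.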

Other observations

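The deposited mm9 exon table gives a further readout of the alternative exons in RPKM. Snap25 exon 5a was listed at 0.0725 and 0.388 RPKM in its fields 1 and 2 and exon 5b at 11.3 and 11.2 RPKM, a wider gap than in transcript TPM or junction reads. The Dnm1 upstream exon had 6.77 and 8.38 RPKM and the downstream exon 0.739 and 0.899 RPKM. The Clta exon of 54 nucleotides had 18.2 and 11.1 RPKM and that of 36 nucleotides 0.170 and 0.225 RPKM. These values have no error of their own.

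Clta also used 2 splice donors at the same exon, which give it a longer and a shorter form. The longer form took 3999 of 4209 reads in field 1 and 5974 of 6387 in field 2 (94.1% over both fields, exact interval 93.7 to 94.6%). The 37-nucleotide exon near the end of Dnm1 was included in 255 of 407 reads in field 1 (62.7%, exact interval 57.8 to 67.4%) and 318 of 383 in field 2 (83.0%, 78.9 to 86.7%), and the intervals did not overlap. In transcript TPM the exon was held by 12.5 and 17.7% of Dnm1, a share that also counts short transcripts. The transcripts that hold it had 23.5 and 20.9 TPM. That sum includes short transcripts, among them the one of 1520 nucleotides with 7.56 and 5.15 TPM. It is therefore not a share of the long Dnm1 transcripts, which had 78.9 and 58.7 TPM. The holders among the long transcripts had less than that sum. The transcript share thus stayed lower than that of junction reads without the short transcripts too, and the reason was not tested.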
